A study of Mus musculus with 177 samples.

Results

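The lungs of newborn mice that breathed low oxygen and then air were compared with the lungs of controls of the same age that breathed air throughout. The 18 arrays were chosen by their titles, which give the tissue, the first gas, the oxygen percentage of the second phase and a replicate number, out of 177 Affymetrix Mouse Gene 1.0 ST arrays of lung, brain and eye (61 of lung). The 9 H21 mice inhaled an oxygen fraction of 0.08 for 120 min and then 0.21 for 30 min, against 0.21 in both phases for the 9 N21 mice. All mice were C57BL/6 at postnatal day 7, the labels name no genetic change, and every animal then spent 150 min in air before its tissue was taken. In addition, 11 H100 and 10 N100 lungs, which received an oxygen fraction of 1.0 in the 30 min phase after low oxygen and after air, served as a second hypoxia contrast with no array in common. The H40 and H60 lungs, which received fractions of 0.4 and 0.6 in that phase after 0.08, entered the same fit. The arrays were taken as separate animals, which the design text implies but the labels do not number. The p-values therefore rest on the spread between arrays, which the fit estimated over 60 lung arrays of 6 groups, not over the 18 alone.

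Low oxygen stabilises the hypoxia-inducible factors (HIF), transcription factors that bind the core letters ACGTG or GCGTG and induce genes for glycolysis, vessel growth and vasodilation. Their protein is degraded within minutes once oxygen returns. Low oxygen is also a stress that releases glucocorticoids, which act in the lung on sodium and fluid transport, and the mouse lung at this age is forming alveoli, with dividing cells and active mesenchyme. Each array measured whole lung, so fewer cells of a type and less RNA per cell cannot be told apart in any result here.

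Tissue markers placed the 18 arrays with lung. The mean log2 level of 13 type 2 alveolar cell genes, which make surfactant, ran from 11.09 to 11.51 in H21 lungs and from 11.27 to 11.56 in N21 lungs, while 14 neuron genes averaged 5.45 to 5.70 in H21 lungs and 5.34 to 5.69 in N21 lungs. The extraction protocol in the labels names a gradient and a kit for blood, whereas the design text describes solid tissue. Sex, read from Xist and 3 Y-linked genes, was uneven: 5 female and 4 male H21 lungs stood against 8 female and 1 male N21 lungs. The columns of the deposited table fall into an earlier and a later block, which the labels do not describe as batches, and limma called 11256 of 19937 genes between the 38 earlier and 22 later lung arrays. The earlier block holds 6 H21 and 5 N21 arrays and the later one 3 H21 and 4 N21 arrays, and the fit carries this column block as a term.

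Among the 18 arrays, 2 stood apart. The array labelled N21 replicate 2 had the profile of a hypoxia lung by a score from a contrast without H21 or N21 arrays. Those arrays entered only the estimate of spread and the column block of its fit. The score was taken over the 26 genes that differed between H100 and N100. The mean log2 level of the 20 higher genes minus that of the 6 lower ones was 1.07 in this array. This score ran from 0.81 to 1.13 in H21 lungs and from -0.29 to 0.06 in the other 8 N21 lungs. The score of the array labelled H40 replicate 2 was 0.04 and that of the array labelled H60 replicate 1 was -0.10, both at the level of the 8 N21 lungs, so that labels and profiles disagreed in both directions in the series. H21 replicate 1 correlated less well with the median lung profile across genes (r = 0.945 against 0.990 to 0.997 in the other H21 lungs). Its T and B lymphocyte genes averaged 7.71, the highest of the 18 lungs, against up to 7.51 in the other H21 lungs. Its type 2 alveolar genes averaged 11.09, the lowest of the 18. Its skeletal muscle genes (7.69) and brown fat genes (7.68) were not extreme, as N21 lungs reached 9.03 and 8.15. Its index of log2 Xist minus the Y-linked genes was -1.42, against -4.00 to -3.67 in the other 3 male H21 lungs. Both arrays stayed in the comparison as labelled, and results are given with and without them.

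**Figure D1:**
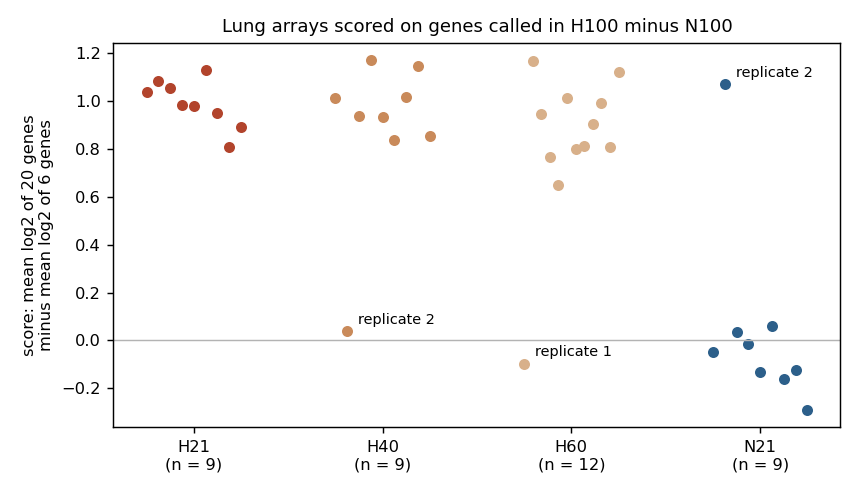
Each point is 1 lung array (H21, H40, H60 and N21 from left to right), and the vertical axis is the mean log2 level of the 20 genes higher in H100 than in N100 minus that of the 6 lower genes. The array labelled N21 replicate 2 sits at 1.07 among the H21 arrays (0.81 to 1.13), while the arrays labelled H40 replicate 2 (0.04) and H60 replicate 1 (-0.10) sit among the other N21 arrays (-0.29 to 0.06).

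Which lung transcripts still differed after the hypoxic newborns had been back in air was asked by H21 minus N21. A genome-wide limma fit called 32 of 19937 genes (0.161%) at a Benjamini-Hochberg adjusted p under 0.05, 26 higher (0.13%) and 6 lower (0.0301%) in H21 lungs. The higher genes included the smooth muscle LIM protein Fhl5, the dipeptidase Dpep1, the vasodilator gene Adm, the lymphatic growth factor Vegfc, glutamine synthetase (Glul), the kinase Sgk1 and the clock genes Cry1 and Arntl. The lower genes included the cell cycle gene Ccnd1, the netrin receptor Unc5c and the LIM cofactor Ldb2. Changes of the called genes were moderate, between 0.31 and 1.52 on the log2 scale in size, with a median of 0.49. Krt80 (change 0.42) and Atoh8 (change 0.37) were the called genes nearest the threshold, both with an adjusted p of 0.0465, and Nkd2 was the nearest beyond it (adjusted p = 0.058, change 0.37).

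Without the array labelled N21 replicate 2, limma called 122 genes (0.612%), 85 higher (0.426%) and 37 lower (0.186%), among them all 32. That array was singled out by its values, so results without it, here and below, favour a difference and tend to smaller p-values. This array lay nearer to the H21 mean than to the mean of the other 8 N21 lungs for 30 of the 32 called genes, and for 12191 of all 19937. No gene of the 19937 had H21 and N21 arrays that did not overlap (0%). Without that array 16 genes separated completely (0.0803%; 0.0602% higher and 0.0201% lower in H21), 10 of them among the 32. Without H21 replicate 1 the count was 62, with 28 of the 32 still called, and without both arrays it was 190, with all 32. The count was 17, 16, 9 and 18 without H21 replicates 2, 3, 5 and 6, and 17, 13, 19, 11, 13, 14, 15 and 13 without N21 replicates 1, 3, 4, 5, 6, 7, 8 and 9. Dpep1, Ntrk2, Vegfc, Glul, Sgk1, Ldb2 and Sec14l2 were called whichever of the 18 arrays was left out. Within the earlier column block alone limma called 0 genes (1152 at an unadjusted p under 0.05) and within the later one 1. All 32 had the same direction in both, which was largely given because they were called on both blocks together. A fit of the 18 H21 and N21 arrays alone called 2 genes, both among the 32. With sex as a covariate 23 genes were called, 21 of them among the 32. The 11 that lost their call kept their direction: Adm, Jam2, Xdh, Lims2, Atoh8, Aldh1l1 and Krt80 of the higher genes and Ccnd1, Unc5c, Adam12 and Gphn of the lower ones, with adjusted p between 0.0613 and 0.0978.

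**Figure D2:**
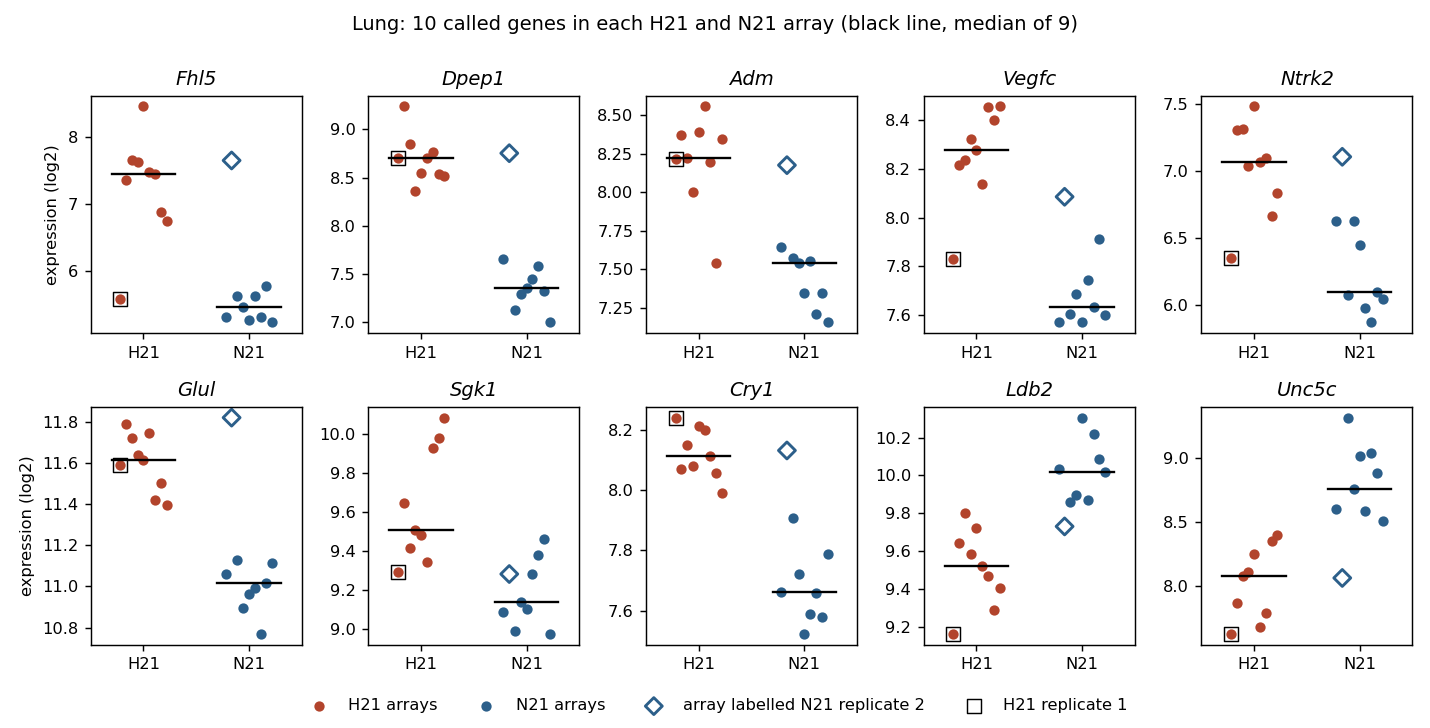
Log2 expression of 10 of the 32 called genes in each H21 array (left, red) and N21 array (right, blue), with the median of 9 as a black line. The open diamond is the array labelled N21 replicate 2, which lies among the H21 points in most panels (7.65 for Fhl5, where the other N21 arrays end at 5.78), and the open square is H21 replicate 1, which lies with the N21 points for Fhl5 (5.59).

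The largest change was that of Fhl5, a LIM-domain protein found in smooth muscle and testis. Its log2 level had a lowest, median and highest value of 5.59, 7.44 and 8.45 in H21 lungs, against 5.24, 5.47 and 7.65 in N21 lungs. The groups overlapped through 1 array on each side, H21 replicate 1 at 5.59 and the array labelled N21 replicate 2 at 7.65. Fhl5 rose by 1.52 ± 0.31 on the log2 scale (SE of the fit, n = 9 each, limma adjusted p = 0.0163), which is 2.86-fold. Other LIM proteins did not move as far. Of 16 LIM-domain proteins and cofactors measured, Fhl5 rose and Ldb2 fell, against 0.13% and 0.0301% of all genes. The other 14 did not pass, and the median change was 0.04 against 0.01 over all genes. Ldb2, which links LIM transcription factors into complexes, had 9.17, 9.52 and 9.80 in H21 lungs against 9.73, 10.02 and 10.30 in N21 lungs. It fell by 0.49 ± 0.09 (limma adjusted p = 0.00615), and the array labelled N21 replicate 2 supplied its lowest N21 value. Lmo3, the next largest of the list, had a change of -0.39 (adjusted p = 0.278). Lims2, a focal adhesion adaptor that also consists of LIM domains but was not on this list, rose by 0.41 ± 0.09 (limma adjusted p = 0.0351). All 10 smooth muscle and pericyte genes lay above 0 but none was called (median 0.15, with Lmod1 at 0.27 and Acta2 at 0.22). Their mean level ran from 9.25 to 9.57 in H21 lungs and from 9.10 to 9.50 in N21 lungs, and its part in the Fhl5 result was not tested.

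Among secreted signals and receptors, Adm, which encodes the vasodilator adrenomedullin and is a direct HIF target, had 7.54, 8.22 and 8.56 in H21 lungs against 7.16, 7.54 and 8.18 in N21 lungs. One H21 lung, at 7.54, lay at the N21 median, and the highest N21 value belonged to the array labelled replicate 2. Adm rose by 0.69 ± 0.16 (limma adjusted p = 0.0456), or 1.62-fold. It missed the threshold in 14 of the 18 fits with 1 array left out (limma adjusted p up to 0.123). Vegfc, the growth factor of lymphatic vessels, rose by 0.58 ± 0.10 (limma adjusted p = 0.00519), the smallest adjusted p of the comparison. Its levels were 7.83, 8.28 and 8.46 in H21 lungs against 7.57, 7.63 and 8.09 in N21 lungs, and H21 replicate 1 was the lowest H21 value. Ntrk2, the receptor TrkB for brain-derived neurotrophic factor, had 6.35, 7.07 and 7.48 in H21 lungs against 5.87, 6.10 and 7.11 in N21 lungs and rose by 0.67 ± 0.13 (limma adjusted p = 0.0111). Vegfc and Ntrk2 changed more in the later column block (0.72 and 0.87) than in the earlier one (0.47 and 0.52), a difference that was not tested. Of 22 vascular growth factors and receptors measured, only Adm and Vegfc passed, against 0.161% of all genes. The median was 0.02, and 12 lay above 0, against 55.1% of all genes. Edn1, the vasoconstrictor endothelin, had a change of 0.32 (adjusted p = 0.397) and Vegfa, the main endothelial growth factor, of -0.18 (adjusted p = 0.74).

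Both Jam2 and Podxl are surface proteins of endothelium. Jam2, a junctional adhesion molecule, rose by 0.46 ± 0.10 (limma adjusted p = 0.0404), with 8.87, 9.22 and 9.44 in H21 lungs against 8.51, 8.64 and 9.41 in N21 lungs. Its N21 values other than replicate 2 ended at 8.80, below every H21 value. Podxl, the sialomucin podocalyxin, rose by 0.40 ± 0.08 (limma adjusted p = 0.0139), although 6 of 9 N21 lungs lay within the H21 range. None of 14 general endothelial genes was called (median 0.05), and their mean level ran from 9.86 to 10.23 in H21 lungs and from 9.84 to 10.24 in N21 lungs.

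Of 28 HIF targets measured, only Adm passed, against 0.161% of all genes. The change lay above 0 for 22 of them, against 55.1% of all genes, and the median was 0.12 against 0.01. Bnip3, a mitochondrial protein of mitophagy, had 8.74, 9.04 and 9.39 in H21 lungs against 8.17, 8.62 and 8.83 in N21 lungs. Its change of 0.52 ± 0.13 did not pass (adjusted p = 0.102) but did so without the array labelled N21 replicate 2 (0.56, adjusted p = 0.033). P4ha2, a collagen prolyl hydroxylase, had a change of 0.36 (adjusted p = 0.269), Hif3a, the alpha subunit that acts largely as a brake, of 0.38 (adjusted p = 0.829), and the glucose transporter Slc2a1 of 0.05 (adjusted p = 0.988). Hif3a changed by 0.61 in the earlier column block and by -0.08 in the later one, a difference that was not tested. Stc1, the secreted stanniocalcin, lay lower, with a change of -0.44 ± 0.13 that did not pass (adjusted p = 0.176). None of 13 glycolysis genes was called. Their median was 0.12 and 11 lay above 0, with the largest at 0.27 for Aldoa and 0.25 for Pfkl. Hmox1, the inducible haem oxygenase, had a change of 0.01 (adjusted p = 0.997) and the immediate-early gene Fos of 0.04 (adjusted p = 0.989), and both changed sign between column blocks.

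Promoters of the called genes are shown because HIF and clock proteins bind short core letters there. RefSeq sequence (GRCm38.p6) from 250 bases before to 50 after the start was at hand for 22 of the 32 genes. Adm is printed as the HIF target that passed, Cry1 as the clock gene and Ntrk2 as a called receptor, each 5′ to 3′ on its own strand. Capitals mark ACGTG and GCGTG on either strand (CACGC is GCGTG on the other strand) and, in Cry1, the E-box CACGTG, which holds ACGTG on both strands. Adm lies at chr7:110627407-110627706 on the plus strand, Cry1 at chr10:85185005-85185304 on the minus strand and Ntrk2 at chr13:58806319-58806618 on the plus strand.
Adm: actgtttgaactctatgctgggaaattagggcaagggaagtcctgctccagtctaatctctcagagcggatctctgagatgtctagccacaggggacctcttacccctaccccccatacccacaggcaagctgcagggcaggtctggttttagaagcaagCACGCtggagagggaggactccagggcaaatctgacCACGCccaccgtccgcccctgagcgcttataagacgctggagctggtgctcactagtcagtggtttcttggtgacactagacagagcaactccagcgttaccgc
Cry1: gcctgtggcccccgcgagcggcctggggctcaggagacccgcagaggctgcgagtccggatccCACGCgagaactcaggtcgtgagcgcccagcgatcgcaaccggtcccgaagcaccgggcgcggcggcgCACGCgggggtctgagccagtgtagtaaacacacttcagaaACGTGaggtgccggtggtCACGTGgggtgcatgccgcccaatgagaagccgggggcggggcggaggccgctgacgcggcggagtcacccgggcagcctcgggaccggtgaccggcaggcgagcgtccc
Ntrk2: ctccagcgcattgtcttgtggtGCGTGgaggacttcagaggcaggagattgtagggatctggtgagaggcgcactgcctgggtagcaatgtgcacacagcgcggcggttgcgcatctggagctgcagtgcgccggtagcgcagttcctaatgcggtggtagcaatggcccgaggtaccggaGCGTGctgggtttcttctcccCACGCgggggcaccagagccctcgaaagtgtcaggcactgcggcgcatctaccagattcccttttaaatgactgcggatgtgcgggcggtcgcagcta
Adm holds 2 matches of GCGTG, which begin 90 and 54 bases before the start. Cry1 holds 2 of GCGTG and 3 of ACGTG, of which 2 are the overlapping pair in its E-box 60 bases before the start, and Ntrk2 holds 3 of GCGTG. Of the 22 genes 11 held at least 1 ACGTG or GCGTG, while 43.8% of all 32841 promoters in the table did. The E-box CACGTG was found in 3 of 22 (7.15% of all promoters) and AGAACA, a half-site of the glucocorticoid receptor, in 4 of 22 (19.0% of all promoters). Genes with several starts were counted once if any start matched, whereas the shares count each promoter, so counts and shares are not directly comparable. A match describes the letters only and shows no binding.

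Of 26 glucocorticoid-responsive genes measured, Sult1a1, Glul, Sgk1 and Sec14l2 rose, none fell, 22 did not pass, and 24 lay above 0 with a median of 0.28. Over all genes 0.13% rose, 55.1% lay above 0 and the median was 0.01. Members of this and the other lists were chosen with earlier results of these data known, so such shares do not test a list. Glul, which condenses ammonia and glutamate into glutamine, had 11.40, 11.61 and 11.79 in H21 lungs against 10.77, 11.01 and 11.82 in N21 lungs. The array labelled N21 replicate 2 gave the value of 11.82, and the other 8 N21 lungs ended at 11.13, below every H21 lung. Glul rose by 0.50 ± 0.10 (limma adjusted p = 0.0111), and its second probe set had a change of 0.48. Sgk1, a kinase that keeps the epithelial sodium channel at the cell surface, had 9.29, 9.51 and 10.09 in H21 lungs against 8.98, 9.14 and 9.46 in N21 lungs and rose by 0.49 ± 0.10 (limma adjusted p = 0.0134). Its change was 0.33 in the earlier column block and 0.72 in the later one. The channel's alpha subunit, Scnn1a, carries sodium out of the airspaces. It had 9.29, 9.73 and 10.16 in H21 lungs against 8.73, 9.08 and 9.94 in N21 lungs and rose by 0.59 ± 0.13 (limma adjusted p = 0.0355). The 8 N21 lungs other than replicate 2 lay below every H21 lung.

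Sec14l2, a lipid-binding protein that takes up tocopherol and stimulates squalene conversion, rose by 0.35 ± 0.06 (limma adjusted p = 0.00615), with levels of 6.99, 7.15 and 7.44 in H21 lungs against 6.62, 6.81 and 7.02 in N21 lungs. Its highest N21 value came from an array other than replicate 2. Other members of the list were not called. Fkbp5, a co-chaperone of the receptor, had 7.22, 7.84 and 9.08 in H21 lungs against 6.91, 7.29 and 8.77 in N21 lungs, a change of 0.48 ± 0.23 (adjusted p = 0.668). Tsc22d3, which encodes the glucocorticoid-induced leucine zipper, had a change of 0.46 ± 0.18 (adjusted p = 0.47), and Per1, which both the receptor and the clock induce, of 0.42 ± 0.23 (adjusted p = 0.757). In the earlier and later column blocks Fkbp5 changed by 0.68 and 0.07, Tsc22d3 by 0.46 and 0.33 and Per1 by 0.53 and 0.06. These block differences were not tested. In all 3 the highest N21 value was that of the array labelled replicate 2. Map3k6, a stress kinase, had a change of 0.50 (adjusted p = 0.127) and passed without that array (0.60, adjusted p = 0.00932). The mean level of the 26 genes ran from 8.31 to 8.83 in H21 lungs, with replicate 1 the highest, and from 8.04 to 8.64 in N21 lungs. The 8 N21 lungs other than replicate 2 ended at 8.29, below the lowest H21 lung. This gap does not test the list, because the mean includes the 4 called members and the array was set aside by its values.

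Of 16 clock genes, 2 rose and none fell, against 0.13% and 0.0301% of all genes. Their median was 0.07, and 9 lay above 0, against 55.1% of all genes. Cry1, a repressor of the core clock, had 7.99, 8.11 and 8.24 in H21 lungs against 7.52, 7.66 and 8.13 in N21 lungs. It rose by 0.41 ± 0.08 (limma adjusted p = 0.0172), and the N21 values other than replicate 2 ended at 7.91, below every H21 value. Arntl, which encodes the activator BMAL1, had 7.66, 7.94 and 8.24 in H21 lungs against 7.32, 7.58 and 8.0 in N21 lungs and rose by 0.35 ± 0.07 (limma adjusted p = 0.0163). The repressors of Arntl lay on the other side: Nr1d1 had a change of -0.32 (adjusted p = 0.578) and Nr1d2 of -0.31 (adjusted p = 0.162), and neither passed. Without the array labelled N21 replicate 2, Cry2 passed as well (0.25, adjusted p = 0.0345). The hour at which tissue was taken is not among the labels used here, so its part in these values was not tested.

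**Figure D3:**
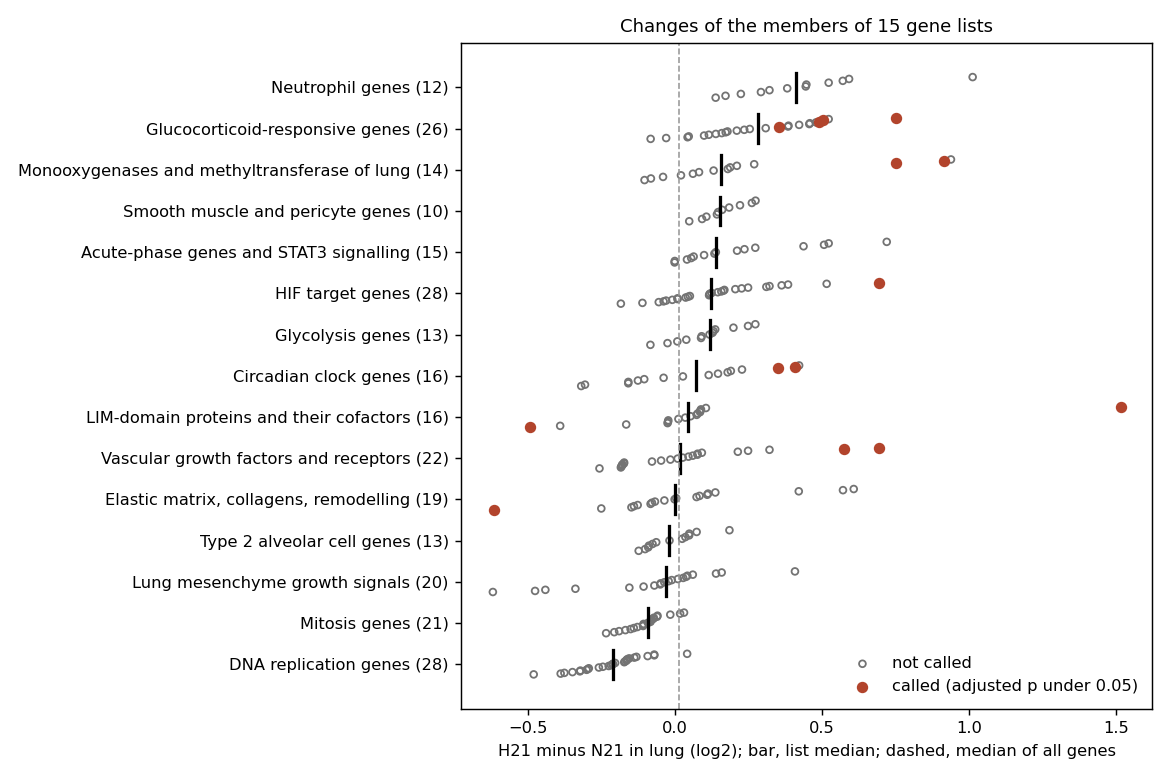
Each point is a gene's H21 minus N21 change (log2, horizontal axis) in 15 gene lists, ordered by their median (black bar), with the number of genes measured in brackets. Filled points passed the test, and the dashed line is the median of all 19937 genes (0.01); the 12 neutrophil genes all lie above 0 and 27 of the 28 DNA replication genes lie below 0, but no member of either list passed.

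Dpep1, a membrane dipeptidase that cleaves leukotriene D4 and products of glutathione, had 8.36, 8.70 and 9.24 in H21 lungs against 6.99, 7.35 and 8.75 in N21 lungs. All 8 N21 lungs other than replicate 2 lay at or below 7.66. Dpep1 rose by 1.22 ± 0.23 (limma adjusted p = 0.00649), or 2.33-fold. Fmo2, the main flavin monooxygenase of lung, rose by 0.92 ± 0.20 (limma adjusted p = 0.0355), with 10.80, 11.64 and 12.10 in H21 lungs against 9.85, 10.30 and 12.12 in N21 lungs. The sulfotransferase Sult1a1, counted above among the glucocorticoid-responsive genes, rose by 0.75 ± 0.16 (limma adjusted p = 0.0165). Its levels were 8.13, 8.77 and 8.99 in H21 lungs against 7.35, 7.66 and 9.04 in N21 lungs. Of 14 lung monooxygenases and related enzymes Fmo2 and Sult1a1 passed, against 0.161% of all genes. The median was 0.15, and 11 lay above 0, against 55.1% of all genes. Inmt, an indolethylamine methyltransferase, had the largest change of the list at 0.94 ± 0.28 but did not pass (adjusted p = 0.191) until the array labelled N21 replicate 2 was left out (1.12, adjusted p = 0.0312).

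Xdh, whose oxidase form makes uric acid and superoxide from hypoxanthine, passed. It alone did so of 8 measured adenosine and xanthine enzymes, against 0.161% of all genes. It had 8.15, 8.94 and 9.16 in H21 lungs against 7.28, 7.75 and 9.28 in N21 lungs and rose by 0.76 ± 0.18 (limma adjusted p = 0.0456), or 1.69-fold. The array labelled N21 replicate 2 was the highest of all 18. Ampd3, an AMP deaminase upstream of hypoxanthine, had a change of 0.21 (adjusted p = 0.554), and the list's median was 0.15.

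Slc40a1, the iron exporter ferroportin, had 8.83, 9.11 and 9.38 in H21 lungs against 8.34, 8.70 and 9.09 in N21 lungs and rose by 0.43 ± 0.09 (limma adjusted p = 0.0163). Gdpd2, a glycerophosphodiesterase, rose by 0.82 ± 0.18 (limma adjusted p = 0.0355), and Ankrd33b by 0.49 ± 0.10 (limma adjusted p = 0.0172). For Ankrd33b this is the brightest of 4 probe sets, and the other 3 had changes of 0.10, 0.08 and 0.24. The remaining higher genes, which fall outside the naming rule and are named to complete the set, were Krt80, Gata3, Mturn, Atoh8, Aldh1l1 and Nipal3. They rose by 0.31 to 0.42, with limma adjusted p between 0.0257 and 0.0465. Krt80 missed the threshold without H21 replicate 1 (0.36, adjusted p = 0.0875), whose level of 8.65 was the highest of the 18.

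The 6 lower genes were Ccnd1, Adam12, Unc5c, Slc7a10, Gphn and Ldb2, of which Slc7a10 and Ldb2 were still called with sex as a covariate. Ccnd1, the cyclin that admits cells to division, had 9.22, 9.51 and 10.03 in H21 lungs against 9.50, 10.13 and 10.68 in N21 lungs and fell by 0.52 ± 0.12 (limma adjusted p = 0.0456). Adam12, a metalloprotease of growing mesenchyme, fell by 0.62 ± 0.14 (limma adjusted p = 0.0456), with 6.47, 7.46 and 7.60 in H21 lungs against 7.31, 7.94 and 8.30 in N21 lungs. Without the array labelled N21 replicate 2 the N21 values of Adam12 began at 7.77, above every H21 value. Without H21 replicate 1, its lowest H21 value, Adam12 no longer passed (-0.51, adjusted p = 0.0813). Unc5c, a netrin receptor of growing axons, fell by 0.75 ± 0.18 (limma adjusted p = 0.0456), with 7.63, 8.08 and 8.40 in H21 lungs against 8.07, 8.76 and 9.31 in N21 lungs. Without H21 replicate 1 it too missed the threshold (-0.70, adjusted p = 0.066). Of 16 netrin, Slitrk and Ptprd-type receptors it alone passed, against 0.161% of all genes, and the median was -0.05. Slitrk6 had the largest decrease at -0.92 ± 0.23 without passing (adjusted p = 0.0938), and it passed without the array labelled N21 replicate 2 (-1.08, adjusted p = 0.00708). Slc7a10, a neutral amino acid transporter, fell by 0.47 ± 0.10 (limma adjusted p = 0.0185). Gphn, which encodes gephyrin, a scaffold of inhibitory synapses and an enzyme of molybdenum cofactor synthesis, fell by 0.41 ± 0.09 (limma adjusted p = 0.0363; 0.0652 without H21 replicate 1).

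Genes of DNA replication lay lower as a list although none of 28 was called. The change was below 0 for 27 of 28, with a median of -0.21 against 0.01 over all genes, and 14 had an unadjusted p under 0.05, as did 2.94% of all genes in that direction. Their mean level ran from 7.52 to 7.87 in H21 lungs and from 7.74 to 8.18 in N21 lungs. The array labelled N21 replicate 2 was the lowest N21 lung at 7.74. Mcm6, a subunit of the replicative helicase, had 8.0, 8.55 and 8.84 in H21 lungs against 8.33, 8.94 and 9.22 in N21 lungs, a change of -0.39 ± 0.11 (adjusted p = 0.13). The polymerase subunits Pole and Pola1 had changes of -0.48 (adjusted p = 0.0626) and -0.38 (adjusted p = 0.46). Without the array labelled N21 replicate 2, Mcm6 (-0.47), Mcm7 (-0.37), Pola2 (-0.28) and Pole (-0.54) passed, with limma adjusted p between 0.0105 and 0.0228. Mitosis genes moved less, with 0 of 21 called, none at an unadjusted p under 0.05 and a median of -0.09. Mki67, the proliferation marker, had a change of -0.21 and the spindle checkpoint kinase Bub1 of -0.23, which was -0.05 without H21 replicate 1. The other uncalled genes with the smallest p in this direction, which fill the naming rule, were St7, Metap1d, Cdk10 and Fads2, with changes from -0.26 to -0.32 and adjusted p of 0.0938 (St7 and Metap1d) and 0.094 (Cdk10 and Fads2).

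Of 20 growth signals of lung mesenchyme none passed with all arrays, and the median was -0.03. Wnt2, a signal from mesenchyme to epithelium, had 7.59, 8.04 and 8.71 in H21 lungs against 7.24, 8.59 and 9.42 in N21 lungs. Its lowest N21 value belonged to the array labelled replicate 2, and the other 8 began at 8.41. Fgf10, the growth factor of branching, had a change of -0.48 (adjusted p = 0.127), Bmp5 of -0.44 (adjusted p = 0.325) and Fgf18, a growth factor of alveolar formation, of 0.41 (adjusted p = 0.157). Without the array labelled N21 replicate 2, Wnt2 (-0.80) and Fgf10 (-0.58) were lower and Fgf18 (0.45) was higher, with limma adjusted p of 0.0221, 0.00842 and 0.0487. Of 19 elastic matrix, collagen and remodelling genes Adam12 fell and none rose with all arrays, against 0.0301% and 0.13% of all genes. Without that array Lox (0.68), which crosslinks elastin and collagen, the protease inhibitor Timp3 (0.50) and Adamtsl2 (0.77) passed as well, with limma adjusted p of 0.00307, 0.00374 and 0.045.

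All 12 neutrophil genes lay above 0, with a median of 0.41, but none passed. Their mean level ran from 6.24 to 7.47 in H21 lungs (median 6.76) and from 5.97 to 7.48 in N21 lungs (median 6.32), and N21 replicate 6 was the highest of the 18. Mmp8, the neutrophil collagenase, had 4.69, 5.53 and 6.82 in H21 lungs against 4.07, 4.56 and 5.50 in N21 lungs. Its change of 1.01 ± 0.26 did not pass (adjusted p = 0.0938), and it passed without the array labelled N21 replicate 2 (1.11, adjusted p = 0.0243). S100a8, a calcium-binding protein abundant in neutrophils, had a change of 0.57 (adjusted p = 0.622), and the chemokine receptor Cxcr2 of 0.59 (adjusted p = 0.518). None of 15 acute-phase and STAT3 genes passed (median 0.14). The largest were Saa3 at 0.72 (adjusted p = 0.68) and Lcn2, which neutrophils also carry, at 0.52 (adjusted p = 0.182). Without the array labelled N21 replicate 2 the interleukin receptor Il6ra (0.52) and the transcription factor Stat3 (0.26) passed, with limma adjusted p of 0.00655 and 0.0474. Genes of other tissue lay higher in some lungs: all 14 skeletal muscle genes lay above 0 (median 0.40, none called), with a mean level of 5.73 to 8.25 in H21 lungs and 5.59 to 9.03 in N21 lungs. All 10 lymphocyte genes did so too (median 0.27, none called). Their mean level ran from 6.20 to 7.71 in H21 lungs (median 6.29) and from 5.96 to 6.77 in N21 lungs (median 6.28). Among H21 lungs the lymphocyte gene Rag1 stood at 9.67 and 9.97 in replicates 1 and 6 and at most at 6.203 in the others. The part of muscle and lymphocyte genes in the results was not tested. Of 13 type 2 alveolar genes none was called (median -0.02), with Sftpd at 0.18.

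The 90 genes that passed only without the array labelled N21 replicate 2 included, besides those of the lists, several with large changes, chosen here after their values were seen. The acute-phase inhibitor Serpina3n (1.06), Wfdc1 (0.79), the matricellular Tinagl1 (0.74) and Mctp1 (0.73) were higher, with limma adjusted p between 0.00926 and 0.0474. The fatty acid transporter Slc27a6 (-0.73), Nckap5 (-0.67) and Rspo2 (-0.65), which amplifies Wnt signals, were lower, with limma adjusted p between 0.0109 and 0.0307. Slc27a6 had 8.84, 9.89 and 10.25 in H21 lungs against 10.39 to 10.67 in the 8 remaining N21 lungs, with no overlap.

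The second hypoxia contrast shared no array with the first, but came from the same fit. The estimate of spread and the column block were shared, so the p-values of both contrasts are linked. All 32 genes had the same direction in H100 minus N100, as did 57.6% of all genes. Of the 32, 28 had an unadjusted p under 0.05 there (5.55% of all genes) and 12 passed after adjustment over all genes (0.13% of all genes, 26 in number). These shared calls included Fhl5 (1.34 ± 0.29, limma adjusted p = 0.022), Dpep1 (1.14 ± 0.21, limma adjusted p = 0.00719), Adm (0.79 ± 0.15, limma adjusted p = 0.00981) and Ntrk2 (0.82 ± 0.12, limma adjusted p = 6.3e-05). Vegfc, the smallest adjusted p in both contrasts, had 7.57, 8.29 and 8.60 in H100 lungs against 7.22, 7.59 and 7.79 in N100 lungs (0.67 ± 0.09, limma adjusted p = 1.9e-05). Stc1, which missed the threshold in air, was lower by the same test in H100 lungs (-0.56 ± 0.12, limma adjusted p = 0.0162). The array labelled H100 replicate 6 carried the N100 profile: over the 32 genes, with the lower ones subtracted, its score was -1.30, against -0.18 to 0.34 in the other H100 lungs and -1.21 to -0.78 in N100 lungs. Without it 89 genes were called (0.446%), 19 of the 32 among them.

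**Figure D4:**
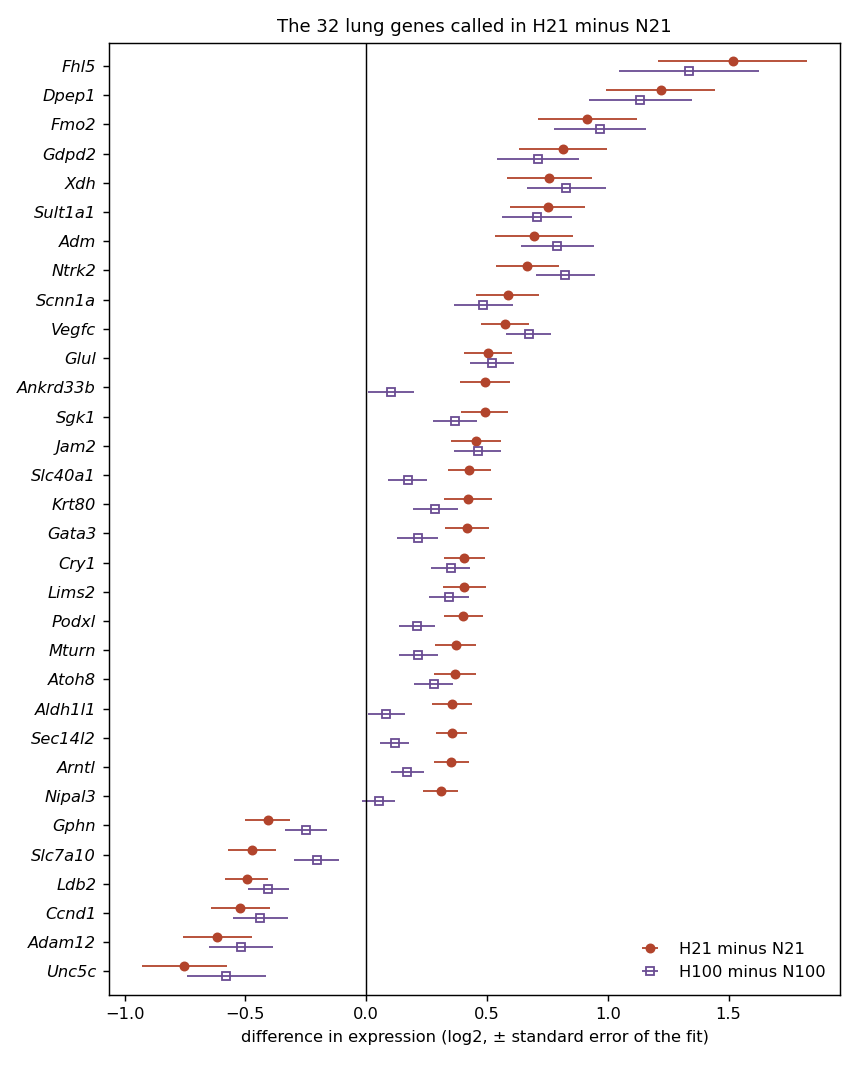
Differences (log2, horizontal axis) of the 32 called genes in H21 minus N21 (filled circles) and in H100 minus N100 (open squares), which share no array; bars are standard errors of the fit. All 32 squares lie on the same side of 0 as their circles, and the marks lie farthest apart for Ankrd33b (0.49 and 0.10).

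Whether the hypoxia difference depended on the oxygen given afterwards was tested as an interaction. limma called 0 of 19937 genes, with 419 (2.1%) at an unadjusted p under 0.05, and also 0 with array quality weights, without the column block, and without the arrays labelled N21 replicate 2 and H100 replicate 6. Of the 32 genes 5 had an unadjusted p under 0.05, all with the larger change in H21: Ankrd33b (0.39 ± 0.14), Aldh1l1 (0.27 ± 0.11), Nipal3 (0.26 ± 0.10), Slc40a1 (0.26 ± 0.12) and Sec14l2 (0.24 ± 0.09). The 32 were chosen on the H21 side of this difference. Fhl5 differed by 0.18 ± 0.42 and Adm by -0.10 ± 0.22 between the contrasts.

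The lung changes were set against those in brain and eye of the same design in 1 fit of all tissues. For 5 genes (0.0251% of all tested) the lung change differed from the brain change: Fhl5, Dpep1, Gdpd2, Ntrk2 and Ldb2. Dpep1 changed by 0.00 ± 0.17 in brain, and lung minus brain was 1.22 ± 0.24 (limma adjusted p = 0.00583). Ldb2 changed by 0.15 ± 0.08 in brain, opposite to lung, and lung minus brain was -0.65 ± 0.11 (limma adjusted p = 0.00104). Against eye 3 genes differed (0.015%), Fhl5 (1.47 ± 0.31, limma adjusted p = 0.0323), Gdpd2 (0.87 ± 0.18, limma adjusted p = 0.0323) and Ntrk2 (0.71 ± 0.14, limma adjusted p = 0.0277). None of the 32 genes was called in brain, where limma called 2 genes in all (0.01%; 313 at an unadjusted p under 0.05), or in eye, where it called 3 (0.015%; 680). Of the 32, 18 had the lung direction in brain and 20 in eye, as did 10833 and 11101 of all 19937 genes. The number of tissue differences was 19 for brain and 21 for eye without the lung array labelled N21 replicate 2, and 8 for each without lung H21 replicate 1. Which arrays of the 3 tissues came from the same animal is not given, so the fit treated them as independent.

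**Figure D5:**
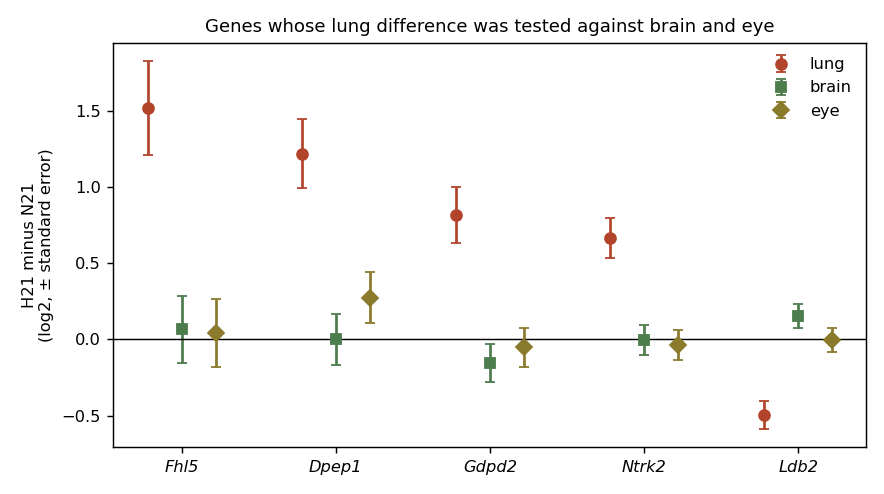
H21 minus N21 differences (log2, ± standard error of the fit) in lung (circles), brain (squares) and eye (diamonds) for the 5 genes whose lung change differed from the brain change. Lung values lie between 0.67 and 1.52 for the 4 higher genes and at -0.49 for Ldb2, while brain and eye values lie between -0.15 and 0.27.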

How the data were processed

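Members and gene lists were chosen with earlier results of these data known. The authors deposited log2 values after RMA (background correction, quantile normalization and summary of probes; version not stated), per the submitters' processing notes and the file headers, made from 10 ng of total RNA per array. Values ran from 1.50 to 14.5, and tissues were treated as normalized separately. Of 34760 probe sets, 21640 have 1 gene symbol, 1321 several and 11799 none; 21553 of the first kind matched RefSeq by Entrez identifier, and the brightest probe set per gene in lung left 19937 genes. limma 3.58.1 (R 4.3.3; lmFit and eBayes, two-sided) was fitted to 60 lung arrays of 6 groups with a column block. The array labelled Lung H40 replicate 10, which had a brain profile, was left out. A gene was called at 0.05 after Benjamini-Hochberg adjustment over all genes; ± is the standard error. The tissue differences came from 1 fit of all tissues without 3 arrays of another tissue's profile. The naming rule took up to 15 called genes per direction by size, filled to 12 by the smallest p, called and largest list members, and a fixed panel. The lists described were chosen from 39. Fits were tested on simulated data. The number of arrays limits the precision. Predicted genes and chemosensory receptors were not named, and genes with no single symbol were not analysed here. Alternatives were another block, filter, normalization, weighting or covariate and the removal of arrays.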

Additional observations from a re-analysis of the deposited data

Results flagged for a closer look

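In 202 sets of 9 arrays (genes, list means and scores, each within H21 or N21), 41 held a highest or lowest array whose gap to its neighbour was more than 0.493 of the set's range. Chance gives about 1 in 20 for a single set. The sets share the same arrays, and some genes were named because they passed only without the array labelled N21 replicate 2. The number of flagged sets therefore cannot be read against that share. Of the 41, 14 were H21 replicate 1 and 20 the array labelled N21 replicate 2.

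H21 replicate 1 was far below the other H21 lungs for Adam12 (6.47, others from 7.28), Slitrk6 (4.71), St7 (6.93), Metap1d (6.53), Fads2 (8.25), Fgf10 (6.04), Acta2 (12.003), Slc27a6 (8.84), Nckap5 (7.45) and Bub1 (6.31). It was far above them for Krt80 (8.65) and Lmod1 (7.78). Its type 2 alveolar gene mean (11.1) and its correlation with the median lung profile (0.945) were also far below the rest. H21 replicate 2 was far above the others for Mturn (8.17) and had the lowest DNA replication gene mean (7.52), and H21 replicate 5 was far above the others for Stc1 (7.43).

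The array labelled N21 replicate 2 was far above the other 8 N21 lungs for Fhl5 (7.65, others up to 5.78), Dpep1 (8.75, others up to 7.66), Adm (8.18), Scnn1a (9.94), Glul (11.8), Jam2 (9.41) and Lims2 (9.05). The same held for Hif3a (7.42), Per1 (8.0), Fkbp5 (8.77), Tsc22d3 (8.74), Map3k6 (7.22), Il6ra (8.74) and Adamtsl2 (9.35). It was far below them for Wnt2 (7.24), Fgf10 (6.84), Slc27a6 (9.38) and Rspo2 (6.53). Its glucocorticoid-responsive gene mean (8.64) and its score over the H100 minus N100 genes (1.07) were far above the rest. Other N21 arrays far from their group were replicate 6 for the skeletal muscle (9.03) and neutrophil gene means (7.48), replicate 4 for the cardiac muscle gene mean (9.66) and replicate 9 for Sftpc (14.1, others from 14.2).

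The lung change differed from the brain change by a test of the difference for Fhl5 (1.45, limma adjusted p = 0.0268), Dpep1 (1.22), Gdpd2 (0.97), Ntrk2 (0.67) and Ldb2 (-0.65). It differed from the eye change for Fhl5 (1.47), Gdpd2 (0.87) and Ntrk2 (0.71).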

How the results depend on the processing

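The count of 32 genes depended on the arrays and the fit. It was 274 with array quality weights (216 instead of 26 for H100 minus N100), 10 without the column block, 2 in a fit of the 18 H21 and N21 arrays only, 4 with the brain-like lung array included, 0 in the earlier column block and 1 in the later one. Leaving out 1 array gave 9 to 122. Alternatives added after seeing the data gave 190 without H21 replicate 1 and N21 replicate 2, 97 with a sex covariate and 7 in the earlier column block, both without N21 replicate 2, and 89 for H100 minus N100 without H100 replicate 6. Lung minus brain called 8 to 19 genes, and lung minus eye 8 to 21, without lung H21 replicate 1 or N21 replicate 2. Leaving out the dimmest 40% of genes gave 38, quantile normalization again 35, every probe set 27, a sex covariate 23 and a mean-variance trend with robust shrinkage 32. The cause of these shifts was not tested. All 32 genes kept their direction in each of the 18 removals, which was largely given because each removal kept most arrays on which they were called.

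Replicate numbers did not pair the groups: correlations of same-numbered deviations ran from -0.35 to 0.17, 1 of 9 over 0.1. With the replicate block added to the column block 16 genes were called.

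Some uncalled genes changed sign. Hmox1 had -0.16 in the earlier column block and -0.14 there without N21 replicate 2. In the later block Fos had -0.15, Hif3a -0.083, Slc2a1 -0.073 and Bub1 0.0048. With 1 array left out, Hmox1 ran from -0.034 to 0.088, Fos from -0.012 to 0.108 and Sftpc from -0.031 to 0.0005, and without H21 replicate 1 and N21 replicate 2 Sftpc had 0.0033. The levels of Sftpc lay between 14.04 and 14.29, near the highest value of the table, with the same value in several arrays, so the sign of its change carries little information. Across the named genes 2328 values kept direction and side of the threshold, 438 kept direction and lost the call, 127 gained it and 16 reversed.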
